A study of Mus musculus with 14 samples.

Results

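Fc receptors bind the constant part of antibodies, and the 9 genes examined here are 6 Fc receptor genes and 3 B cell genes that were read in liver sinusoidal endothelial cells (LSECs) sorted from mice for CD32. The Fc receptor genes were Fcgr2b, Fcgr3, Fcgr1, Fcgr4, Fcer1g and Fcgrt, and the B cell genes were Cd79a, Cd79b and Ms4a1. The members were chosen by name and matched by gene identifier through GENCODE vM21 on GRCm38, each to 1 row of the 54524 rows of the count table, and all 9 passed the filter on low counts that left 26626 genes for testing. CD32 is the protein of Fcgr2b in the mouse, so the sort itself used the product of 1 of these genes. The question was which Fc receptor transcripts stood at the level of LSEC genes in these libraries and which varied with myeloid or B cell genes.

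The samples were 14 bulk RNA-seq libraries of LSECs from male BALB/c mice, with ages of 10 to 12 weeks in the labels. The 4 groups were healthy untreated mice (n = 4) and mice collected 1 day (n = 2), 3 days (n = 4) and 7 days (n = 4) after a single intraperitoneal injection of carbon tetrachloride (CCl4), a hepatotoxin, at 0.5 µl per gram body weight in mineral oil. Per the paper, 2 other day 1 samples were not included because their RNA integrity was too low. The healthy mice received no oil injection, so the injection and the CCl4 cannot be told apart. Cells were sorted as CD32+, F4/80-, negative for UV autofluorescence and for propidium iodide, and in the methods also CD45-, after an Fc block. The labels do not say that each library is 1 mouse, and the p-values measure the spread between these libraries. The total count per library ranged from 46401496 to 103912264, and the number of genes detected was 22986 in day 3 replicate 4, 28203 in day 3 replicate 3, 34678 and 34768 in day 3 replicates 1 and 2, and 27283 to 30735 in the other libraries.

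Background on the members is as follows. Fcgr1, Fcgr3 and Fcgr4 encode activating receptors for IgG, which signal through the common gamma chain encoded by Fcer1g, and Fcgr2b encodes the inhibitory IgG receptor, which carries its own inhibitory motif. LSECs are known to use the Fcgr2b product to clear small immune complexes from blood, and macrophages and monocytes are the usual site of the activating receptors. Fcgrt encodes the heavy chain of the neonatal Fc receptor, FcRn, which pairs with beta-2-microglobulin and returns IgG and albumin from endosomes to the blood. Cd79a and Cd79b encode the signalling chains of the B cell antigen receptor and Ms4a1 encodes CD20, and B cells express Fcgr2b as well.

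In healthy LSECs the 9 genes fell into levels far apart, given here as CPM (a gene's counts relative to all counts of the sample, after TMM scaling) per kilobase of exon (CPM per kb), the scale on which genes can be set beside each other. Fcgrt was at 543 ± 45.2 (SD, n = 4), Fcgr2b at 490 ± 72.4 and Fcer1g at 457 ± 61.3, which ranked 76, 90 and 95 among 54495 genes with a length. Fcgr2b overlapped both of the others, while the lowest Fcgrt (507) lay just above the highest Fcer1g (503). All 3 lay above Stab2 (207 ± 18.7) and Lyve1 (133 ± 37.4), the hyaluronan receptor genes used as LSEC markers, in every healthy sample, and below the LSEC lectin gene Clec4g (2173 ± 339).

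The other 6 genes lay lower. Fcgr3 stood at 36.8 ± 12.1 CPM per kb, Cd79a at 29.3 ± 15.2, Cd79b at 14.2 ± 7.35, Fcgr4 at 10.7 ± 5.45, Fcgr1 at 3.97 ± 2.40 and Ms4a1 at 2.56 ± 1.34. Each of these overlapped its neighbour in that order. On the same scale the lysozyme gene Lyz2, abundant in myeloid cells, was at 578 ± 282, and the Kupffer cell genes Clec4f and Vsig4 were at 158 ± 91.0 and 96.1 ± 53.9. Csf1r, the macrophage growth factor receptor gene, was at 20.9 ± 12.4 and Ptprc, the gene of the CD45 that the sort excluded, at 3.82 ± 2.05. Tyrobp, a myeloid adaptor that is a close counterpart of the Fcer1g chain, was at 127 ± 64.3 CPM per kb.

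**Figure D1:**
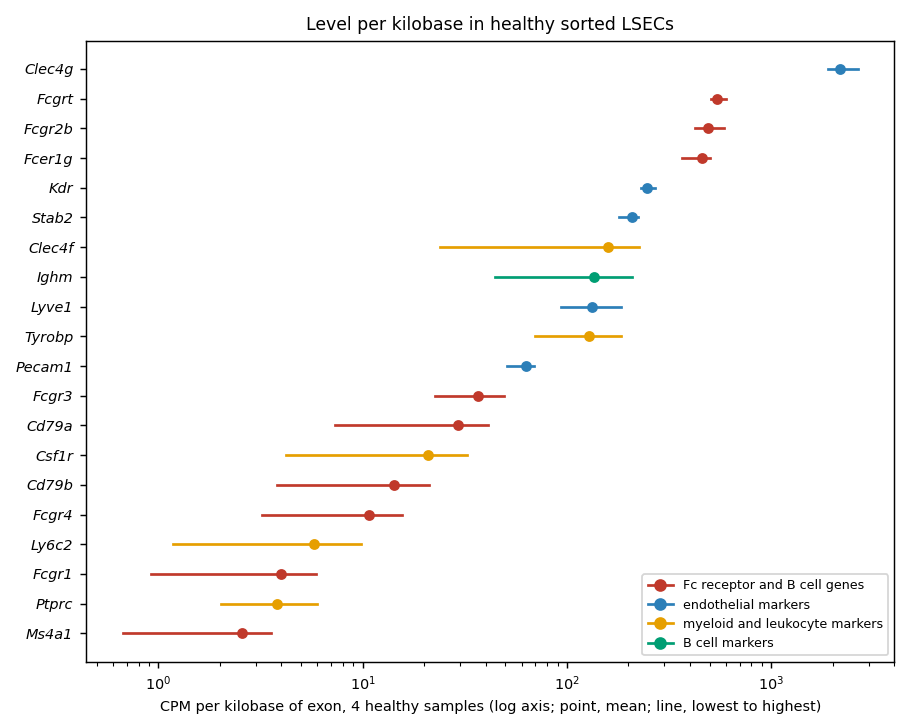
Level of the 9 genes (red) beside endothelial (blue), myeloid and leukocyte (orange) markers and the B cell gene Ighm (green) in the 4 healthy samples, as CPM per kilobase of exon on a log axis; points are means and lines run from the lowest to the highest sample. Fcgrt, Fcgr2b and Fcer1g sit at 457 to 543, above Stab2 and Lyve1, and the other 6 genes sit at 36.8 or less. The myeloid gene Lyz2 is not drawn, and its mean of 578 lies above those of all 9 genes.

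Markers of LSECs and of other cell types were both present. The 16 genes of the LSEC and endothelial list summed to 23986 to 27190 CPM in healthy samples. The 12 Kupffer cell genes summed to 310 to 2008 CPM in the same samples, the 12 monocyte genes to 545 to 1603, the 12 neutrophil genes to 23.5 to 154 and the 16 B cell genes to 263 to 1345. The lists hold none of the 9 genes, and no gene of these 5 lists was under 3 counts in all samples of a group. In bulk samples fewer cells of a type and less RNA per cell cannot be told apart.

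The genes Fcgr2b, Fcgr4, Fcgr3 and Fcer1g lie close together on mouse chromosome 1 (GRCm38): Fcgr2b at chr1:170958617-170976547, Fcgr4 at chr1:171018920-171029761, Fcgr3 at chr1:171051174-171064935 and Fcer1g at chr1:171229572-171234365, of which Fcgr4 is on the plus strand and the others on the minus strand. Fcgr1 is at chr3:96282909-96293969, Fcgrt at chr7:45092990-45103851, Cd79a at chr7:24897381-24902197, Cd79b at chr11:106311341-106314762 and Ms4a1 at chr19:11249675-11266241. All 9 are protein-coding. Fcgr2b shares 155 bp of exon with Gm38204 on the opposite strand, and whether the counting used strand was not stated, so reads of these 155 bp cannot be assigned to one of them.

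Fcgr2b and Fcgr3 encode extracellular parts so alike that short reads can fit both genes, while per kb Fcgr2b was 10.1 to 25.9 times Fcgr3 in healthy samples. Exon 4 is shown because it was the closest pair among whole coding exons of equal length: 250 of its 255 bases (98%) were the same in the 2 genes. This comparison did not cover stretches that cross from one exon into the next. It lies within the coding sequence at chr1:170966446-170966700 in Fcgr2b and chr1:171053939-171054193 in Fcgr3, both on the minus strand of GRCm38, and capitals mark the 5 bases that differ.
Fcgr2b exon 4: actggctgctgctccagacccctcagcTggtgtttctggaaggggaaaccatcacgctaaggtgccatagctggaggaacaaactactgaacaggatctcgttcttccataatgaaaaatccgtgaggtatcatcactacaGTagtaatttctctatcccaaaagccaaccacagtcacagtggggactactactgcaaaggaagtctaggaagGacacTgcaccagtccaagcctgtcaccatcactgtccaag
Fcgr3 exon 4: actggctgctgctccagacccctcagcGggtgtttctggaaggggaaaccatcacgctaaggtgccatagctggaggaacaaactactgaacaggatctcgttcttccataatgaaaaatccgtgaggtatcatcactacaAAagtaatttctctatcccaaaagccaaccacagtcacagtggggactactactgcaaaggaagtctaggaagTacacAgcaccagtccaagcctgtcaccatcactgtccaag

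Exon 3 of the pair was the same at 241 of 255 bases (94.5%). Of the 1733 windows of 100 bases in Fcgr3 transcripts, 44 (2.54%) occur unchanged in Fcgr2b, and of the windows of 75 bases 94 (5.42%) do. No window of 50, 75 or 100 bases of Fcgr3 occurs in Fcgr1 or Fcgr4. How the counting treated reads that fit both genes was not stated. Fcgr3 counts did not track those of Fcgr2b across samples (r = -0.447 over 14 libraries, a description without a test), and the Fcgr3 level is uncertain by whatever share of the Fcgr2b reads was assigned to it.

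Fcgr2b, the inhibitory receptor gene, was lower at day 3 after CCl4 than in healthy LSECs. Its CPM values in the healthy replicates 1 to 4 were 3397, 2606, 2912 and 2443. They were 1585 and 1798 at day 1. They were 1580, 1392, 1780 and 1561 at day 3. At day 7 they were 2555, 1380, 1730 and 1706. All day 1 and day 3 samples lay below all healthy samples, and at day 7 replicate 1 lay within the healthy range while the other 3 lay below it. Fcgr2b fell at day 3 by 0.85 on the log2 scale (SE 0.20, 1.80-fold lower, edgeR adjusted p = 0.0240), whereas the day 1 difference of -0.75 (SE 0.25, adjusted p = 0.128) and the day 7 difference of -0.62 (SE 0.20, adjusted p = 0.103) did not pass. The day 3 call was lost when healthy replicate 1, 2 or 3 or day 3 replicate 2 was left out, without day 3 replicates 1 and 2 together and with scaling by library size only, and over all 24 alternatives the adjusted p ran from 0.000964 to 0.0767.

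Fcgrt, the FcRn gene, was also lower at day 3. Its CPM values were 1266, 1066, 1168 and 1070 in healthy samples. They were 644 and 857 at day 1 and 806, 748, 686 and 629 at day 3. They were 993, 632, 653 and 668 at day 7. Every sample after CCl4 lay below every healthy sample. Fcgrt fell at day 3 by 0.67 on the log2 scale (SE 0.18, 1.59-fold lower, edgeR adjusted p = 0.0430), and the differences of -0.61 (SE 0.23, adjusted p = 0.176) at day 1 and -0.63 (SE 0.18, adjusted p = 0.0767) at day 7 did not pass. Leaving out healthy replicate 1, 2 or 3 or day 3 replicate 2, the replicate block and scaling by library size only each ended the day 3 call (adjusted p of 0.00565 to 0.116 over 24 alternatives). B2m, the gene of the FcRn light chain, was the fifth most abundant gene per kb in healthy samples, and its difference at day 3 was -0.44 (SE 0.32, adjusted p = 0.477). Fcgrt amounted to 6.68% to 9.43% of B2m per kb in healthy samples and 4.44% to 13.4% at day 3. None of the 8 FcRn partner and trafficking genes passed the test at day 1, day 3 or day 7.

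Fcgr1, the high-affinity IgG receptor gene, was higher at day 3. Its CPM values were 2.39, 15.1, 15.4 and 8.24 in healthy samples. They were 66.4 and 28.7 at day 1 and 162, 86.9, 22.1 and 20.2 at day 3. They were 23.4, 35.5, 26.1 and 20.2 at day 7. All samples after CCl4 lay above all healthy samples, and day 3 replicates 1 and 2 lay well above replicates 3 and 4. Fcgr1 rose at day 3 by 2.83 on the log2 scale (SE 0.69, 7.10-fold higher, edgeR adjusted p = 0.0268). The differences of 2.21 (SE 0.76, adjusted p = 0.133) at day 1 and 1.36 (SE 0.66, adjusted p = 0.255) at day 7 did not pass. Without day 3 replicates 1 and 2 the day 3 difference was 1.01 and the call was lost, and leaving out any healthy replicate, or either of these libraries, the replicate block and the fit of 2 groups also ended it (adjusted p of 0.000396 to 0.276 over 24 alternatives).

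Fcgr4, a second activating IgG receptor gene, had CPM values of 4.05, 17.1, 19.6 and 12.9 in healthy samples. It had 59.4 and 37.8 at day 1 and 119, 51.2, 13.1 and 15.8 at day 3. It had 18.6, 31.3, 30.1 and 21.5 at day 7. The day 1 samples lay above the healthy range, and at day 3 replicates 1 and 2 did while replicates 3 and 4 lay inside it. The log2 differences were 1.86 (SE 0.72, edgeR adjusted p = 0.185) at day 1, 1.89 (SE 0.63, adjusted p = 0.0911) at day 3 and 0.92 (SE 0.62, adjusted p = 0.415) at day 7. Fcgr1 and Fcgr4 were close to each other over the 14 samples (r = 0.958, and 0.974 with group means subtracted, as descriptions), and per kb Fcgr1 was 0.286 to 0.824 times Fcgr4.

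Fcgr3, the third activating receptor gene, had CPM values of 39.3, 77.4, 84.9 and 53.9 in healthy samples. It had 135 and 68.9 at day 1 and 169, 115, 65.1 and 37.1 at day 3. It had 146, 179, 161 and 105 at day 7. It differed from Fcgr1 and Fcgr4 in that its highest group mean was at day 7 (148 ± 31.6 CPM, n = 4), where all samples lay above the healthy range. The log2 differences were 0.68 (SE 0.48, edgeR adjusted p = 0.533) at day 1, 0.59 (SE 0.41, adjusted p = 0.432) at day 3 and 1.21 (SE 0.41, adjusted p = 0.117) at day 7. Without day 3 replicates 1 and 2 its day 3 difference was -0.35.

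Fcer1g, the common gamma chain gene, had CPM values of 427, 410, 439 and 321 in healthy samples. It had 892 and 693 at day 1 and 1388, 977, 368 and 214 at day 3. It had 415, 459, 435 and 378 at day 7. Both day 1 samples lay above the healthy range, and the day 3 samples lay on both sides of it, with replicates 1 and 2 high and replicate 4 low. The log2 differences were 0.99 (SE 0.50, edgeR adjusted p = 0.336) at day 1, 0.88 (SE 0.43, adjusted p = 0.245) at day 3 and 0.08 (SE 0.42, adjusted p = 0.944) at day 7, and the day 3 value was -0.48 without day 3 replicates 1 and 2. Among healthy samples replicate 1 held the lowest Fcgr1, Fcgr3 and Fcgr4 and the lowest Kupffer list sum (310 CPM against 1478 to 2008 in the other healthy samples), yet its Fcer1g was 427 CPM. Per kb, Fcer1g was 18.2 times the sum of the 3 activating receptors in that sample and 3.71 to 9.80 times in the other 13. It was 7.02 times Tyrobp in that sample, 2.55 to 4.96 times in the other healthy samples and 1.10 to 2.58 times after CCl4.

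**Figure D2:**
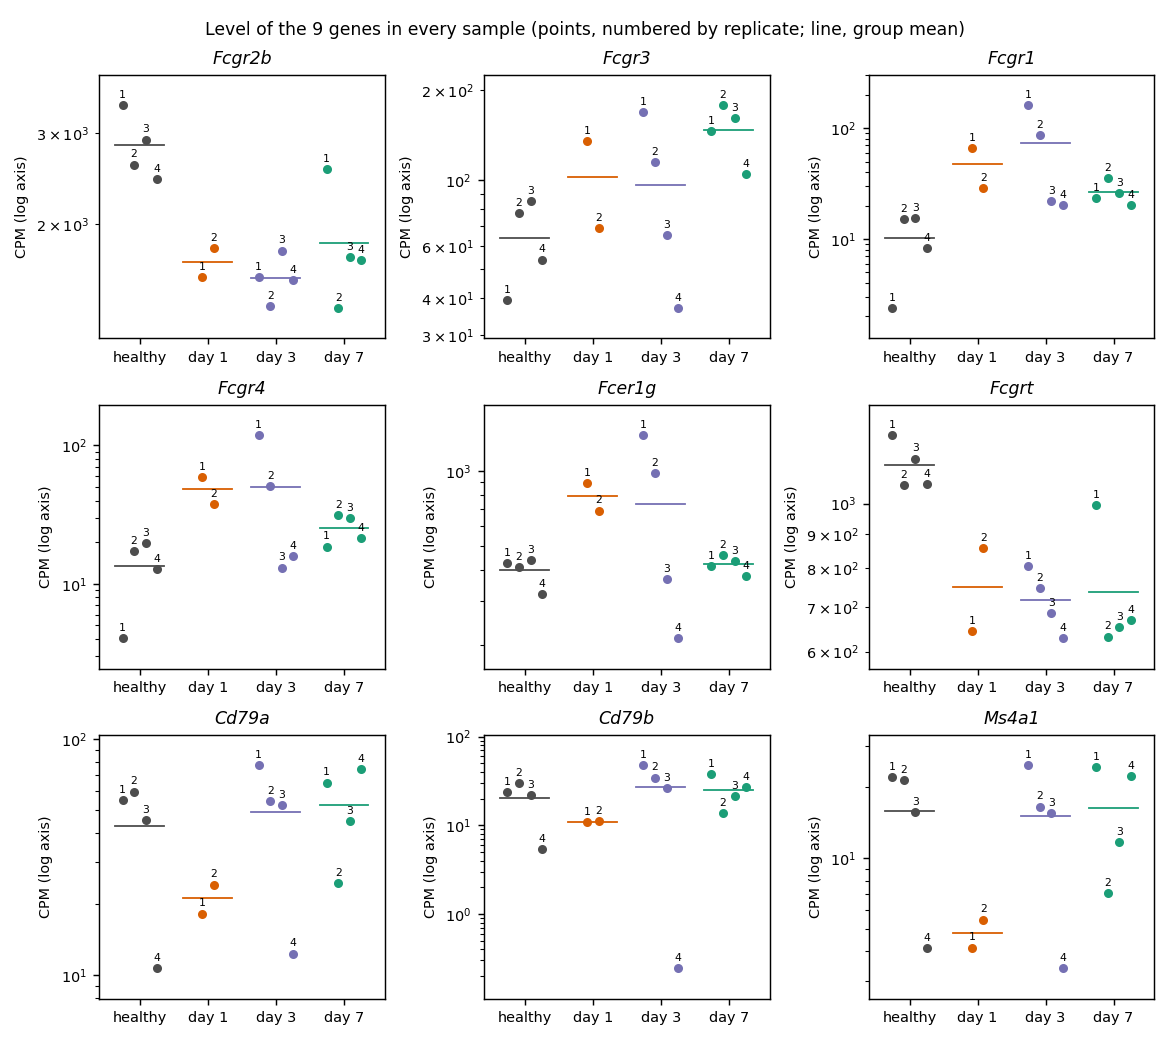
CPM of each of the 9 genes in every sample on log axes, by group; points are samples numbered by replicate and lines are group means. The means of Fcgr2b and Fcgrt are lower after CCl4, the activating receptor genes and Fcer1g are highest in day 3 replicate 1, except Fcgr3, which is highest in day 7 replicate 2, and the B cell genes are lowest in healthy replicate 4, day 3 replicate 4 and the day 1 samples.

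Of the summed per kb level of Fcgr2b, Fcgr3, Fcgr1 and Fcgr4, Fcgr2b made up 95.6%, 87.5%, 87.7% and 90.5% in the healthy samples. It made up 64.5% and 79.3% at day 1. It made up 51.7%, 63.1%, 84.5% and 86.6% at day 3. At day 7 it made up 80.3%, 62.7%, 70.2% and 77.6%. Fcgr2b was therefore the most abundant of these 4 transcripts in all 14 samples, and its share was below every healthy value in all 10 samples after CCl4. Fcgrt, which is not among these 4, lay above Fcgr2b per kb of exon in all 14 samples. Per kb Fcgr2b was 2.31 to 12.6 times Fcgr3 after CCl4. The sort took CD32+ cells and left out F4/80+ and, in the methods, CD45+ cells. These shares therefore describe the sorted cells and not the liver.

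**Figure D3:**
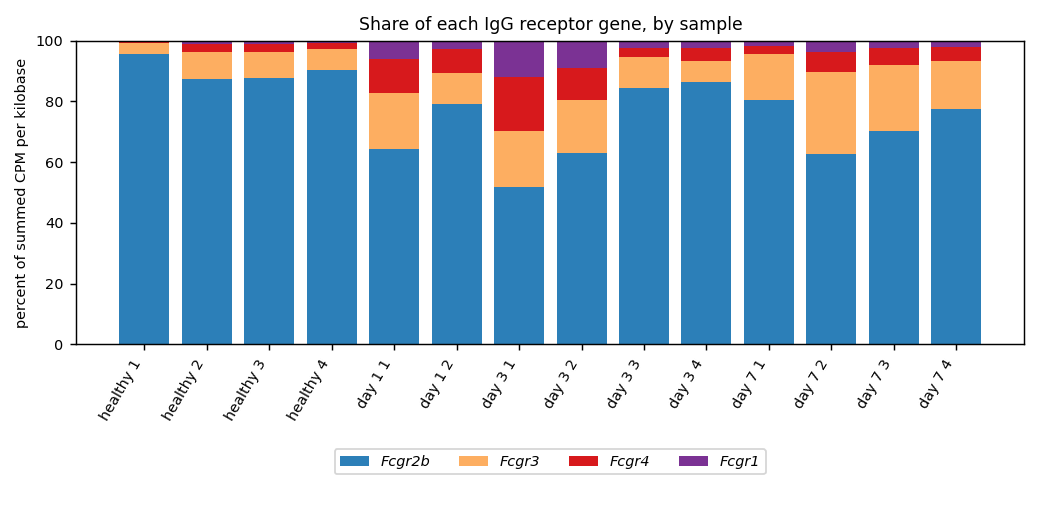
Share of Fcgr2b, Fcgr3, Fcgr4 and Fcgr1 in their summed CPM per kilobase, as stacked bars from 0 to 100 percent, for each sample. The Fcgr2b share is 87.5% or more in the healthy samples and falls to 51.7% in day 3 replicate 1.

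The B cell genes ranged widely within groups. Cd79a had CPM values of 55.0, 59.8, 45.2 and 10.7 in healthy samples. It had 18.2 and 24.1 at day 1 and 77.1, 54.4, 52.3 and 12.3 at day 3. It had 65.2, 24.5, 44.8 and 74.3 at day 7. Healthy replicate 4, both day 1 samples, day 3 replicate 4 and day 7 replicate 2 held the low values, and the groups overlapped at each time. Cd79b ranged from 5.43 to 30.1 CPM in healthy samples, was 10.8 and 11.2 at day 1, and ranged from 0.244 to 47.4 at day 3 and from 13.8 to 38.0 at day 7. Ms4a1 ranged from 4.14 to 22.02 CPM in healthy samples, was 4.15 and 5.46 at day 1, and ranged from 3.39 to 24.8 at day 3 and from 7.06 to 24.4 at day 7. In both genes healthy replicate 4 and day 3 replicate 4 were the lowest of their groups.

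None of the B cell genes passed the test. The day 1 log2 differences were -1.01 (SE 0.70) for Cd79a, -0.89 (SE 1.10) for Cd79b and -1.72 (SE 0.78) for Ms4a1, with edgeR adjusted p of 0.512, 0.772 and 0.263. At day 3 and day 7 the differences lay between -0.07 and 0.42, with SEs of 0.55 to 0.87. The day 3 signs of all 3 turned when single libraries were left out. Cd79b stood apart in day 3 replicate 4, with 23 counts against 931 or more counts of Cd79a in every library: the ratio of Cd79a to Cd79b per kb was 49.4 there and 1.55 to 2.69 in the other 13 samples. The ratio of Cd79a to Ms4a1 per kb ran from 10.6 to 18.8 over all samples.

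Read against all genes, 3 of 9 members were called at day 3, where 7.19% of the 26626 genes tested were called, and 2 of these were lower (2.58% of all genes) and 1 was higher (4.62%). No member was called by edgeR at day 1 (4.06% of all genes called, 2.42% higher and 1.64% lower) or at day 7 (3.18%, 2.19% higher and 0.992% lower). None was called between day 3 and day 1 (2.54%, 1.57% higher and 0.969% lower) or between day 7 and day 3 (1.77%, 0.413% higher and 1.36% lower). At an unadjusted p under 0.05, 5 members passed at day 1 (17.9% of all genes), 4 at day 3 (22.2%), 3 at day 7 (21.1%), 0 between day 3 and day 1 (15.8%), and 1 between day 7 and day 3 (18.8%). DESeq2 called 1 member at day 1 (12% of the genes it gave an adjusted p), 4 at day 3 (14.8%), 3 at day 7 (10.6%), 0 between day 3 and day 1 (9.42%) and 0 between day 7 and day 3 (6.33%). Limma called 5 members at day 1 (16.2% of all genes), 5 at day 3 (27.3%), 3 at day 7 (26.5%), 0 between day 3 and day 1 (12.6%) and 2 between day 7 and day 3 (22.5%). Both tools called Fcgr2b lower at day 1 and Fcgr4 higher at day 3. At day 7 both called Fcgr3 higher and Fcgr2b and Fcgrt lower. On simulated data, described below, DESeq2 made more false calls than edgeR or limma.

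The groups did not overlap with healthy in 5 of 9 members at day 1, against 37.9% of all genes, with 3 members higher (20%) and 2 lower (17.9%). At day 3 this held for 3 of 9 against 14.4%, with 1 higher (7.53%) and 2 lower (6.84%). At day 7 it held for 3 of 9 against 20.8%, with 2 higher (8.72%) and 1 lower (12.1%). Between day 3 and day 1, and between day 7 and day 3, 0 of 9 members were without overlap, against 21.8% (11.4% higher and 10.4% lower) and 7.91% (3.76% higher and 4.15% lower) of all genes. The median log2 difference of all genes was 0.18 at day 3, and the comparisons with healthy share the same 4 healthy samples.

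**Figure D4:**
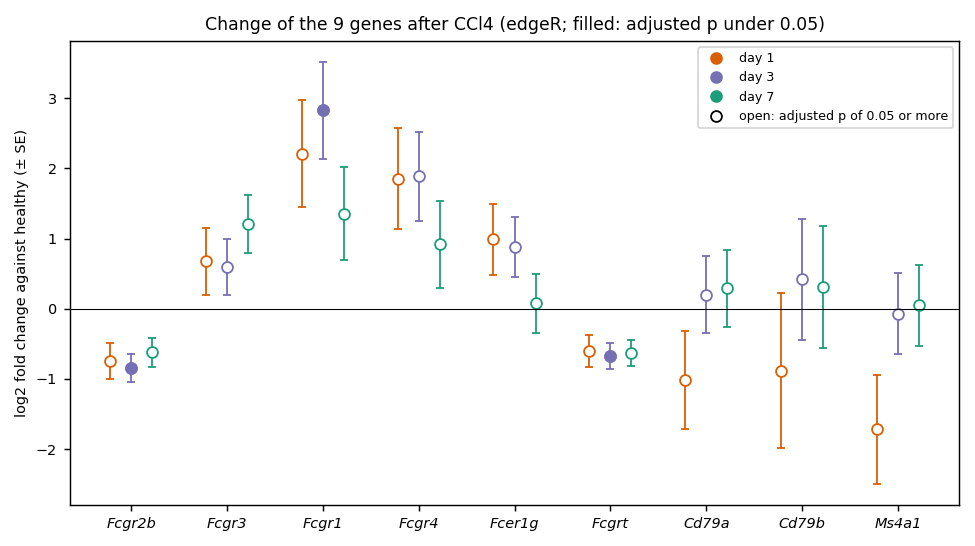
log2 fold change of each of the 9 genes against healthy at day 1, day 3 and day 7, with bars of 1 SE (edgeR); filled points have an adjusted p under 0.05. The 3 filled points are Fcgr2b (-0.85), Fcgr1 (2.83) and Fcgrt (-0.67), all at day 3.

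Genes that act with the receptors were counted from lists. Of 22 activating ITAM signalling genes, 1 was higher at day 1 (the kinase Fgr), 4 were higher and 1 lower at day 3, and 1 was higher at day 7, with a median log2 difference at day 3 of 1.24 against 0.18 for all genes. The 4 that rose at day 3 were the adaptors Lat2 (log2 difference 2.35, SE 0.53) and Blnk (1.35, SE 0.34), the kinase Btk (1.33, SE 0.33) and the phospholipase Plcg2 (1.74, SE 0.45), and the kinase Fyn, named after its values were seen, fell (-0.88, SE 0.25), with edgeR adjusted p of 0.0177 to 0.0465. The kinase Syk and the adaptor Tyrobp had log2 differences of 1.26 (SE 0.38, adjusted p = 0.0661) and 2.37 (SE 0.69, adjusted p = 0.0545) at day 3. Of 13 inhibitory ITIM signalling genes 2 were higher at day 1, 1 at day 3 and 1 at day 7: the inhibitory receptor Lilrb4a rose at days 1 and 3 (2.83, SE 0.54, and 2.60, SE 0.48), Cblb at day 1 and Cbl, both ubiquitin ligases, at day 7. Inpp5d, the phosphatase SHIP1 that Fcgr2b recruits, differed by 0.12 (SE 0.21, adjusted p = 0.797) at day 3.

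Of the 13 other Fc receptor and Fc-binding genes, 11 were tested and 1 passed, Fcrl5 at day 3 (log2 difference 2.56, SE 0.63, edgeR adjusted p = 0.0265), at group means of 1.08 and 0.182 CPM. The alpha and beta chains of the IgE receptor, Fcer1a and Ms4a2, did not exceed 0.510 and 0.302 CPM in any sample, while Fcer1g, which completes that receptor, was at 214 CPM or more. The B cell IgE receptor gene Fcer2a and the IgM receptor gene Fcmr were lowest in the day 1 samples, healthy replicate 4 and day 3 replicate 4, at 1.47 to 5.28 CPM. Of the 13 genes of the B cell antigen receptor complex and its coreceptors 1 passed, the tetraspanin gene Cd81, which many cell types express and which fell at day 3 (-0.93, SE 0.26, adjusted p = 0.0432) and day 7 (-1.11, SE 0.26, adjusted p = 0.0364), at 447 to 1589 CPM. Of the 16 B cell list genes Bank1 alone passed, lower at day 1 (-1.58, SE 0.38, adjusted p = 0.0337).

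The marker lists moved as well, and their part in the members' changes was not tested. Of the 16 LSEC and endothelial genes, 3 were higher and 5 lower at day 1, 1 higher and 5 lower at day 3, and 1 lower at day 7 (median log2 differences of -0.81, -0.64 and -0.52), and the list summed to 12763 to 19470 CPM after CCl4 against 23986 or more in healthy samples. Of the 12 monocyte genes 3, 9 and 3 were higher at days 1, 3 and 7 and none was lower (medians of 2.33, 2.82 and 1.87). The monocyte sum was 12028 and 7534 CPM in day 3 replicates 1 and 2, 1899 and 1860 in replicates 3 and 4, and 4558 to 10353 at day 7. Lyz2 made up most of it: it was at 3919 to 9304 CPM at day 7, and without it the sum was 639 to 1049 at day 7, 801 and 1057 at day 1, and 3653 and 2046 in day 3 replicates 1 and 2. Its CPM exceeded that of Clec4g in day 3 replicates 1 and 2 (8376 against 3337 in replicate 1) and in all 4 day 7 samples (9304 against 2102 in replicate 2). Of the 12 neutrophil genes 5 were higher at day 1 and 1 at day 3. Their sum was 7050 and 2809 CPM in day 1 replicates 1 and 2 and 129 to 204 at day 7. At day 3 it was 3377 and 1995 CPM in replicates 1 and 2 against 63.2 and 19.4 in replicates 3 and 4. None of the 12 Kupffer genes passed at any of the 3 times. The 10 stellate cell genes summed to 295 to 474 CPM in healthy samples, 771 to 2090 at day 3 and 542 to 5649 at day 7, with 8 of 10 higher at each of these times. The 8 pan-leukocyte genes summed to 303 to 862 CPM in healthy samples, with 1, 0 and 1 of 8 higher at days 1, 3 and 7. They summed to 2114 and 1147 CPM in day 1 replicates 1 and 2, 660 to 2900 at day 3 and 1066 to 1417 at day 7. None of the 10 hepatocyte genes passed at any of the 3 times, and they summed to 9165 CPM in healthy replicate 4 against 216 to 399 in the other healthy samples, 40.4 and 152 at day 1 and 899 to 3220 at day 3.

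Each member was then set against the mean log2 CPM of the 5 marker lists over the 14 samples, 45 relations in all, with Benjamini-Hochberg adjustment over them. Fcgr2b correlated with the LSEC and endothelial list (r = 0.838, permutation p = 0.00025, adjusted 0.00141; rho = 0.798, adjusted 0.00500), and so did Fcgrt (r = 0.699, p = 0.00632, adjusted 0.0231; rho = 0.626, adjusted 0.0521). Without the 2 samples farthest from the median list score, r was 0.852 and 0.761. With the group means subtracted, r was 0.521 (exact permutation p = 0.0653, adjusted 0.128) for Fcgr2b and 0.0855 (adjusted p = 0.883) for Fcgrt, so that within groups neither relation passed. Against the same list Fcgr1, Fcgr4 and Fcgr3 ran the other way (r of -0.840, -0.764 and -0.690, permutation adjusted p of 0.00116, 0.00695 and 0.0231). Within groups their r was -0.684, -0.689 and -0.758, and none passed (exact permutation adjusted p of 0.0824, 0.0903 and 0.0586). Fcgr2b also ran against the monocyte list (r = -0.737, permutation adjusted p = 0.0109), at -0.194 within groups.

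Fcgr1 and Fcgr4 correlated with the monocyte list. For Fcgr1 r was 0.935 (permutation p = 1e-05, the smallest the resampling can give, adjusted 0.00015; rho = 0.978, adjusted 0.000225), and it was 0.851 within groups (exact permutation p = 0.0109, adjusted 0.0445). For Fcgr4 r was 0.880 (permutation adjusted p = 0.00036; rho = 0.916) and 0.836 within groups (exact permutation p = 0.0220, adjusted 0.0586). Both also correlated with the Kupffer list within groups, at 0.845 and 0.821 (exact permutation adjusted p of 0.0445 and 0.0417). Over all samples r with the Kupffer list was 0.531 for Fcgr1 (permutation adjusted p = 0.106) and 0.646 for Fcgr4 (adjusted p = 0.0382), and without healthy replicate 1 and day 3 replicate 4 it fell to 0.107 and 0.313. Fcgr4 and Fcgr3 correlated with the neutrophil list as well, at 0.688 and 0.617 (permutation adjusted p of 0.0232 and 0.0470). Within groups these r were 0.638 and 0.808 and did not pass (exact permutation adjusted p of 0.224 and 0.0586). Without day 1 replicate 1 and day 3 replicate 4, r was 0.732 for Fcgr4 (permutation adjusted p = 0.0262). For Fcgr3 it fell to 0.445 and no longer passed (adjusted p = 0.330). For Fcgr1 r with the neutrophil list was 0.603 over all samples (permutation adjusted p = 0.0552), while rho was 0.758 (adjusted 0.00978). Without the same samples its r was 0.692 and passed (permutation adjusted p = 0.0423). Within groups it was 0.666 and did not pass (exact permutation adjusted p = 0.172).

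Fcgr3 correlated with the monocyte list at 0.674 (permutation adjusted p = 0.0233; rho = 0.727) and at 0.847 within groups (exact permutation p = 0.00741, adjusted 0.0417). Fcer1g correlated with the neutrophil list (r = 0.872, permutation adjusted p = 0.00112; rho = 0.820) and the monocyte list (r = 0.739, adjusted p = 0.0111; rho = 0.771), and within groups at 0.947 (exact permutation p = 0.00412, adjusted 0.0371) and 0.852 (adjusted 0.0445). The monocyte relations of Fcgr3 and Fcer1g fell to r of 0.589 and 0.599 and no longer passed without day 3 replicate 1 and healthy replicate 4, the 2 samples farthest from the median score.

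The 3 B cell genes correlated with the B cell list at 0.981 (Cd79a), 0.840 (Cd79b) and 0.947 (Ms4a1), and at 0.988, 0.870 and 0.971 within groups, with permutation adjusted p of 0.00015 to 0.0157. No Fc receptor gene passed against the B cell list: r lay between 0.0869 and 0.448, and it was 0.161 for Fcgr2b. Within groups the B cell genes also correlated with the neutrophil list (r of 0.763 to 0.887, exact permutation adjusted p of 0.0371 to 0.0445), and without healthy replicate 4 and day 3 replicate 4, which were lowest in both lists, these r fell to 0.279 to 0.508 and did not pass. Leaving out these 2 samples left 3 of the 45 within-group relations under an adjusted p of 0.05, against 12 with all samples: Fcgr3 and Fcgr1 with the monocyte list and Cd79a with the B cell list (exact permutation adjusted p = 0.0434 each).

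**Figure D5:**
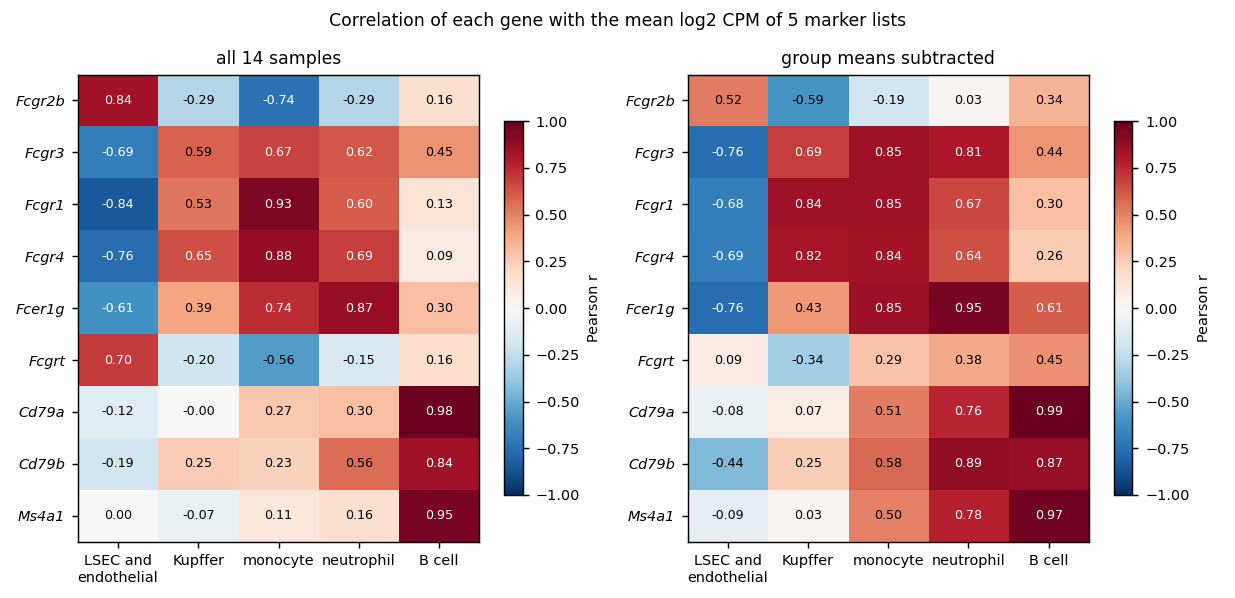
Pearson r of each of the 9 genes (rows) with the mean log2 CPM of 5 marker lists (columns), over all 14 samples on the left and after subtraction of group means on the right; colour runs from blue (-1) through white to red (1). The B cell genes reach 0.84 to 0.98 with the B cell list on the left, Fcgr1 and Fcgr4 reach 0.93 and 0.88 with the monocyte list, and Fcgr2b reaches 0.84 with the LSEC and endothelial list.

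The genes most like each member over the 14 samples, among 15612 genes with a mean of at least 1 CPM, are given by Pearson r as a description. For Fcgr2b they were Klhl4 (0.969), Golga7 (0.963), St3gal4 (0.955) and the caveolar genes Cav2 (0.953) and Cavin2 (0.952), with r of 0.822 to 0.926 within groups. For Fcgrt they were Dctn2 (0.968), Clec4g (0.966), Gimap6 (0.965), Slc31a2 (0.948) and Tusc2 (0.948). Fcgr2b and Fcgrt correlated with each other at 0.919, and at 0.757 within groups.

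For Fcgr1 the closest were Slfn2 (0.968), Ms4a6d (0.962), Gm49339 (0.961), Fcgr4 (0.958) and Ms4a6c (0.958), a gene of the monocyte list. For Fcgr4 they were Gm5150 (0.970), Fcgr1 (0.958), Ms4a6d (0.953) and Lrrc25 (0.953). For Fcgr3 they were Tnfaip8l2 (0.977), Gm2a (0.949), Cib2 (0.946), the cathepsin gene Ctss (0.933) and Tifab (0.923). Fcer1g stood apart: its closest were the ferritin and ribosomal pseudogenes Ftl2-ps (0.965), Ftl1-ps1 (0.962), Gm15590 (0.962) and Rps27a-ps2 (0.961) and C130026I21Rik (0.954), rows that can share reads with other gene copies.

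For Cd79a the closest were Ighd (0.974), Ms4a1 (0.972), Fcmr (0.964) and Tnfrsf13c (0.949), and for Ms4a1 they were Cd79a (0.972), Fcmr (0.961), Ighd (0.947) and Fcer2a (0.920). All of these other than the members are B cell genes, and Ighd and Tnfrsf13c are in the B cell list. For Cd79b they were Chst3 (0.970), Irf4 (0.961), Tspan32 (0.960), St8sia6 (0.958) and Fcrl1 (0.956), each at a mean of 4.58 CPM or less.

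The promoters of the 3 activating receptor genes are shown because Fcgr1 and Fcgr4 moved together across samples and Fcgr3 did so within groups (r = 0.926 with Fcgr1). A further reason is that the promoters each hold a GAGGAA core, the letters recognised by the myeloid factor PU.1. The promoters were seen to have the last base of this core 50 bases or fewer before the start. They are the 250 bases before the RefSeq start (GRCm38.p6), at chr1:171059395-171059644 (minus strand) for Fcgr3, chr3:96293970-96294219 (minus strand) for Fcgr1 and chr1:171018676-171018925 (plus strand) for Fcgr4, and capitals mark the core, found in each as its reverse complement TTCCTC; Fcgr3 has 2 listed starts, and the window of 1 of them is shown.
Fcgr3 promoter: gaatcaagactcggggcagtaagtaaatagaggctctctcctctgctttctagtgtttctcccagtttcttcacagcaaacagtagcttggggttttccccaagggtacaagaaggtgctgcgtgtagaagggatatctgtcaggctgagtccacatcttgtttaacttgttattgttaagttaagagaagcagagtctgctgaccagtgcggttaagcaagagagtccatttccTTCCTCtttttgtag
Fcgr1 promoter: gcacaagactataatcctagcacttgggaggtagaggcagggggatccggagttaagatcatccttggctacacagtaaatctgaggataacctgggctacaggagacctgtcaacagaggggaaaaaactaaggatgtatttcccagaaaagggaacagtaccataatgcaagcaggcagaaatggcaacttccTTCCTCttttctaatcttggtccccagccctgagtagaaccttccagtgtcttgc
Fcgr4 promoter: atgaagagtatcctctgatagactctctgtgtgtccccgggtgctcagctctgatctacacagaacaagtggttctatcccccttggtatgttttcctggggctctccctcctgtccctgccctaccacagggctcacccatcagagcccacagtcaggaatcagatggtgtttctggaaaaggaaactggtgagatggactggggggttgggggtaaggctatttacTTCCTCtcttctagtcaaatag

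The last base of the core was 10, 50 and 17 bases before the start in Fcgr3, Fcgr1 and Fcgr4. Counting both strands, GAGGAA occurred at any position in 23.3% of the 32851 windows of this length. The share of windows with it this near the start was not counted. GAGGAA was also in the Cd79a window, 135 bases before the start, but not in those of Fcgr2b, Fcer1g and Fcgrt. The octamer core TTTGCAT (4.12% of windows) and the E-box CACGTG (6.02%) were in none of the 7 genes with a window. CCCNNGGG, written for EBF (11.8%), was in the Fcgr3 and Fcgrt windows, and TTCNNNGAA, the gamma-activated site (7.02%), in the Fcgr1 window alone. These matches are descriptions of letters and not of binding.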

How the data were processed

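RNA of sorted LSECs was made into SMART-Seq v4 libraries. Per the labels and the study's methods, the authors checked reads with FastQC and AfterQC, aligned them with STAR to GRCm38 and used StringTie and DESeq2. The authors deposited 1 table of whole-number counts per gene for 14 samples. The annotation release, use of strand and treatment of reads that fit 2 genes were not given in the sources used here.

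Gene symbols and exon lengths came from GENCODE vM21 (54495 of 54524 identifiers matched). Counts were tested with edgeR 4.0.16 (quasi-likelihood test, TMM scaling, filterByExpr with a minimum count of 10 and total of 15) in 1 model of 4 groups, with Benjamini-Hochberg adjusted p under 0.05 as a call. Values are TMM-scaled CPM. Log2 CPM used a prior count of 2. An SE was obtained by dividing the absolute log2 change by the root of the F statistic. Alternatives were DESeq2 1.42.0, limma 3.58.1 with voom and quality weights per sample, other scalings and filters, a replicate block and leaving out libraries. Correlations used 100000 resamples, or all 27648 orders within groups. In simulated data, 200 genes were given a log2 change of 2 against healthy. Testing 25441 genes, edgeR found 30% of the 200 at day 1, 45% at day 3 and 47.5% at day 7. Its false calls numbered 2, 4 and 5. DESeq2 found 39.5%, 54% and 53% of the 200 at these times, with 40, 61 and 48 false calls. Limma found 28.5%, 43% and 41%, with 1, 6 and 3 false calls.

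The members and gene lists were chosen with earlier results of these data known. Named genes were the 9 members, the 5 genes most like each, sort markers, receptor partners, and up to 4 called genes of each list with the smallest adjusted p. Some of these genes are not reported here. No sample was left out of the main tests, and no 2 samples were identical. Total counts were 46401496 to 103912264 per sample, so counting error was small beside the spread between samples for all but the lowest values.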

Additional observations from a re-analysis of the deposited data

Results flagged for a closer look

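Of 27 groups of 4 samples (9 genes in the healthy, day 3 and day 7 groups), 1 held a sample far from the others. Fcgrt in day 7 replicate 1 was at 993 CPM against 632, 653 and 668 CPM in the other day 7 samples, a gap of 0.899 of the group's range against Dixon's critical value of 0.829. Chance flags about 1 in 20 such groups. The same library also held the highest Fcgr2b of its group, 2555 CPM against 1380 to 1730.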

How the results depend on the processing

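For the 27 log2 fold changes against healthy, 572 of 648 alternative values kept their direction and their side of the threshold, 21 lost a call, 34 gained one and 21 changed sign. The day 3 calls held in 18 of 24 alternatives for Fcgr2b, 18 for Fcgrt and 15 for Fcgr1. The alternatives without 2 libraries were chosen after seeing the data. Where other causes are not shown by the alternative's construction, the cause was not tested.

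Members called at day 1 (0 by edgeR) numbered 1 with DESeq2, 5 with limma, 2 with only the 2 groups compared, 3 without day 3 replicates 1 and 2 and 3 without day 3 replicates 3 and 4. At day 3 (3 by edgeR) they numbered 5 with limma, 1 with library size only, 1 without day 3 replicates 1 and 2, 5 without day 3 replicates 3 and 4, and 0 to 5 with single libraries left out. The count was 0 without healthy replicate 1, 2 or 3 or day 3 replicate 2, and 5 without day 3 replicate 4. At day 7 (0 by edgeR) they numbered 3 with DESeq2, 3 with limma, 1 with 2 groups, 1 without day 3 replicates 1 and 2, 2 without replicates 3 and 4, and 0 to 2 with single libraries left out (1 without day 3 replicate 4 and 2 without day 7 replicate 1). Between day 3 and day 1 the count was 1 without day 3 replicates 1 and 2, and between day 7 and day 3 it was 2 with limma and 3 without day 3 replicates 3 and 4.

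With the replicate number as a block 1 member was called at day 3 (Fcgr2b), and 594 genes against 1080 at day 1. After subtraction of group means, same-numbered samples correlated at -0.232 to 0.0962 over 18 pairs and the other 54 pairs at -0.256 to 0.236. Of the 14 samples 0 matched best with its own number. The 2 day 1 samples mirror each other once their mean is subtracted, and groups are small. The check therefore cannot settle whether samples of the same number shared a step, and no pairing was used in the main tests.

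Signs changed as follows. At day 3 the log2 fold change of Ms4a1 was 0.17 with limma, 0.27 without day 3 replicates 3 and 4 and -0.53 to 0.18 with single libraries left out. Without day 3 replicates 1 and 2 it was -0.35 for Fcgr3, -0.48 for Fcer1g, -0.41 for Cd79a and -0.63 for Cd79b. With single libraries left out it was -0.26 to 0.44 for Cd79a and -0.083 to 0.74 for Cd79b. At day 7 that of Ms4a1 was -0.13 with limma, -0.0628 with no filter and -0.24 to 0.30 with single libraries left out. At day 7 that of Fcer1g was -0.049 with no filter and that of Cd79a -0.0054 to 0.53 with single libraries left out.

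Of 180 alternative correlations, 136 kept sign and side, 15 lost the threshold, 5 gained it and 24 changed sign. Without the 2 samples farthest from the median score r was 0.0054 for Fcgr2b, 0.036 for Fcgrt and -0.18 for Cd79b with the Kupffer list. It was -0.28 for Cd79a, -0.0055 for Cd79b and -0.39 for Ms4a1 with the monocyte list. It was -0.0093 for Fcgr3, -0.13 for Fcgr1, -0.21 for Fcgr4 and -0.27 for Fcer1g with the B cell list. With library size only, r of Ms4a1 with the LSEC list was -0.00812, and within-group r was -0.020 for Cd79a and -0.059 for Ms4a1 with the Kupffer list, -0.012 for Fcgrt with the monocyte list and -0.25 for Fcgr2b with the neutrophil list. Without healthy replicate 4 and day 3 replicate 4, within-group r was 0.38, 0.10 and 0.34 for Cd79a, Cd79b and Ms4a1 with the LSEC list. There it was -0.020 and -0.13 for Cd79a and Ms4a1 with the Kupffer list, -0.046 and -0.026 with the monocyte list, -0.16 for Fcgr2b with the neutrophil list and -0.17 for Fcgr3 with the B cell list, and 3 relations passed.

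Over the longest transcript in place of all exons, healthy levels were 801 CPM per kb for Fcgr2b, 585 for Fcer1g, 645 for Fcgrt and 5.15 for Ms4a1, which places Fcgr2b above Fcgrt.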
